A study of Schizosaccharomyces pombe with 8 samples.

Results

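The ade6 locus was taken as the gene ade6 (SPCC1322.13, chromosome III, 1316281 to 1318035, plus strand) with 2 kb on each side, 5755 bp in all, and its members were all ligated pairs of DNA ends with at least 1 end in it. The interacting library had 252 such pairs of 101984, and the de-crosslinked library had 333 of 123434. Pairs whose ends both lay within 500 bp of each other were counted once, as 1 ligation event, since 1 junction can be copied before it is sequenced. This left 65 interacting events of 35511 and 124 de-crosslinked events of 56018.

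Both libraries come from Schizosaccharomyces pombe cells of genotype pat1-114 rec12D that carry Rec27 tagged with GFP, taken through meiosis at 34 °C after about 18 h without nitrogen and harvested at 3.5 h. In the interacting library the immunoprecipitated chromatin was ligated with its crosslinks still in place; for the de-crosslinked library they were removed first, so that it shows how the same kind of DNA joins without them. There is 1 library per group, and the other 6 samples of the series were not analysed here. A test here therefore sets 1 library against another and says nothing of the spread between cultures; intervals cover counting error alone.

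Both groups lack rec12, which encodes the protein that makes meiotic DNA breaks, so no programmed breaks form at ade6 or elsewhere in these cells. The pat1-114 allele is temperature sensitive and lets meiosis be started by the shift in temperature. There is no input and no untagged control among the samples, so what Rec27 adds to the level of a place could not be measured. The labels place the 8 samples in 2 sequencing runs without naming the run of each, and a run cannot be told apart from the ligation step. As a check of the labels, both libraries had 1 end in rec12 (1772925 to 1774203 of chromosome I), while the 1 kb on its left held 11 ends with crosslinks kept and 35 with crosslinks removed and the 1 kb on its right 28 and 24.

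The ade6 gene encodes phosphoribosylaminoimidazole carboxylase, an enzyme of purine synthesis whose loss turns colonies red. That colour made ade6 a classical reporter of meiotic recombination in fission yeast. Its best known allele, M26, is a base change near the start of the coding sequence that makes the heptamer ATGACGT, a binding site of the transcription factor Atf1-Pcr1 and a hotspot of meiotic recombination. Rec27 is a small protein of the linear elements, the protein axes that form along fission yeast chromosomes in meiosis and are known to gather at places where Rec12 cuts.

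Sequences are given from the RefSeq assembly ASM294v3, plus strand. The build behind the deposited positions is not given in the sources used here, but 0 ends of either library fell in the 468527 bases of that assembly that no unique 50 bp word covers, against 1239 and 1251 interacting ends when positions were moved by -100 and 100 bp. All 5755 bp of the ade6 locus were unique by this measure. The first 2 lines below show 250 bp of the ade6 coding sequence each. The first is the stretch with most ends in both libraries when every pair is counted, chrIII:1317531-1317780. Counted as events, the next 250 bp held more in the interacting library, with 9 event ends against 8. The second is the stretch of the first 878 bp of ade6 where the libraries differed most in events, chrIII:1316781-1317030. The next 2 lines show 60 bp around the octamer and the heptamer-like place described next, in capitals, at chrIII:1317441-1317500 and chrIII:1316445-1316504. The last line shows 200 bp around a partner end between ole1 and gst4, chrIII:1396755-1396954, which was joined to ade6 by the interacting event with most pairs.
ade6 densest stretch: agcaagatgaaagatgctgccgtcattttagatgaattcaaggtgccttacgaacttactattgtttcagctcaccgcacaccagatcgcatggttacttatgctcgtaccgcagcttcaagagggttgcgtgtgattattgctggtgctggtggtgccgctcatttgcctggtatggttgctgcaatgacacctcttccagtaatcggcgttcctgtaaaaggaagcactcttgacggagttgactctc
ade6 first-part stretch: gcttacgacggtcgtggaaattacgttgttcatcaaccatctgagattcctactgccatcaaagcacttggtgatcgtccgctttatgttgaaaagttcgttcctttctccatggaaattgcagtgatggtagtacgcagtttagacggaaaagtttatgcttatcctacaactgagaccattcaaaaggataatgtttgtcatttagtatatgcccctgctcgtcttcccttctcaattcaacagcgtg
ade6 octamer: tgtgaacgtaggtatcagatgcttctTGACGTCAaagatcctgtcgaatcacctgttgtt
ade6 heptamer-like place: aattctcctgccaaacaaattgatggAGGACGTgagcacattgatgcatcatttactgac
ole1 to gst4 partner: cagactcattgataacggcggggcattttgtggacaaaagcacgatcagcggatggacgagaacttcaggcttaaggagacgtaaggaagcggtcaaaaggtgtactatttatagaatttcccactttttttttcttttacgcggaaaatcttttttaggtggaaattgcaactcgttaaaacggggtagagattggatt

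The heptamer ATGACGT, searched on both strands, was not in the 5755 bp of the locus, and it is in 11.8% of all 2183 windows of that length. The place AGGACGT, 190 bp from the start of ade6 (1316471 to 1316477), is 1 base from it and is the place that the M26 change alters. The octamer TGACGTCA, which reads the same on both strands and shares the letters TGACGT with the heptamer, occurred in ade6 once, 1186 bp from its start (1317467 to 1317474). Of 7161 windows of 1755 bp, the length of ade6, 0.628% hold it. The octamer lies just before the stretch with most ends when every pair is counted. A match in letters is not evidence of binding, and the labels name no ade6 allele for these cells.

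The density of ends was high over ade6 and lower on both sides of it, and all 252 interacting and 344 de-crosslinked ends of the locus were in the authors' hot class. With 500 bp on each side, ade6 held 173 ends or 62.8 per kb in the interacting library, which is 4.62 times the median protein-coding gene and rank 34 of 5113. In the de-crosslinked library it held 248 ends or 90.0 per kb, 5.75 times the median gene and rank 30. Counted as events, ade6 stood at 3.06 times the median gene (rank 75) with crosslinks kept and at 4.88 times (rank 36) with crosslinks removed. With every pair counted, genes at 4 or more times the median made up 0.978% of all genes with crosslinks kept and 1.29% with crosslinks removed. The level was known when the locus was chosen and is given as a description. The 1 kb bin of the locus with most ends, 1317001 to 1318000, held 99 ends with crosslinks kept and 134 with crosslinks removed, or 8.25 and 8.93 times the median bin.

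The authors' hot class around ade6 formed 1 run from 1313953 to 1320582. Its 6630 bp reach from within bub1, which encodes a kinase of the spindle checkpoint, over ade6 into vtc4, a gene of the vacuolar transporter chaperone complex. It is 1 of 451 such regions, of median width 5314 bp, and 138 of them are wider.

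**Figure D1:**
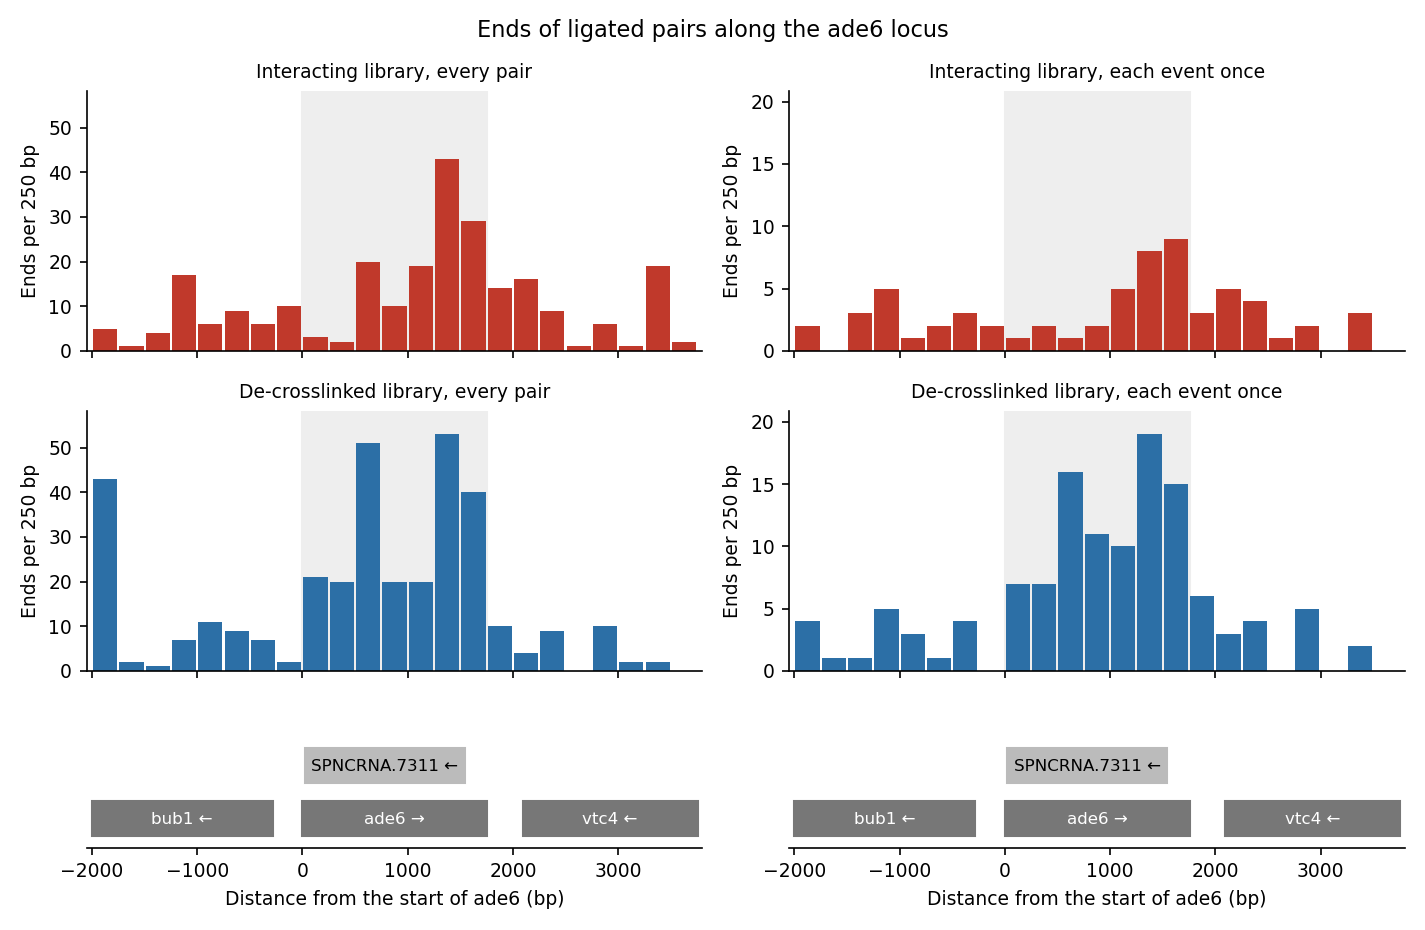
Ends per 250 bp (y axis) by distance from the start of ade6 in bp (x axis), interacting library above and de-crosslinked below, with every pair counted on the left and each event once on the right. Grey marks ade6; boxes are genes, with arrows for their direction. The de-crosslinked ends fill the whole of ade6, with 38 and 47 event ends in its first and second parts, whereas the interacting ones lie mostly in the second, with 4 and 24.

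Within ade6 the interacting event ends lay mostly in the second part of the gene, while the de-crosslinked ones lay in both parts. Counted as events, the second 877 bp of ade6 held 24 ends with crosslinks kept and 47 with crosslinks removed, which is 4.84 times (3.10 to 7.21) and 6.01 times (4.42 to 8.0) the mean density of each library. The first 878 bp held 4 ends with crosslinks kept and 38 with crosslinks removed, or 0.806 times (0.220 to 2.06) and 4.86 times (3.44 to 6.67) the mean. Counted so, the interval of the first part included the mean of the interacting library and lay above that of the de-crosslinked library. This split was set after the values were seen and was not tested. With every pair counted the first part held 28 ends in the interacting library, or 31.9 per kb (21.2 to 46.1), 1.97 times the mean of 16.2, so that its interval then lay above the mean. It held 107 ends, 6.21 times the mean, in the de-crosslinked library. The 250 bp printed as the second line held 20 ends and 1 event end in the interacting library, against 51 ends and 16 event ends in the de-crosslinked one. The interacting event end there, at 1316905, is that of the 21 pairs joined to the gap between ole1 and gst4.

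The flanks were lower than the second part of ade6 in both libraries. Counted as events, the parts of bub1 and vtc4 and the gap after ade6 were above the first part of ade6 in the interacting library. That first part held 4 event ends, and its interval, 0.220 to 2.06 times the mean, overlapped each of theirs. With every pair counted, the parts of bub1 and vtc4 fell below it, at 1.72 and 1.86 against 1.97 times the mean. The gap after ade6 stayed above it, at 3.27 times. The part of bub1 in the locus held 17 and 18 event ends, 1.75 times (1.02 to 2.81) the mean density of the interacting and 1.18 times (0.697 to 1.86) that of the de-crosslinked library. The part of vtc4 held 13 event ends in each, 1.39 and 0.878 times the mean. The gap before ade6, 283 bp that hold its promoter side, had 2 event ends with crosslinks kept and 1 with crosslinks removed. The gap after it had 5 and 7, 2.61 and 2.32 times the mean. In all, ade6 itself took 43.1% of the event ends of the locus with crosslinks kept and 67.5% with crosslinks removed.

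Events of many pairs weighed on single places. Pairs that repeated both positions of another pair exactly were 5 of 252 with crosslinks kept and 8 of 333 with crosslinks removed. Whether the other pairs of an event are copies of 1 junction was not tested. The locus had 3.88 pairs per event with crosslinks kept and 2.69 with crosslinks removed, against 2.87 and 2.20 over each whole library. The largest event held 21 pairs in the interacting library, and it joined ade6 to the gap between ole1 and gst4 on chromosome III. In the de-crosslinked library the largest held 39 pairs, joined bub1 to mas5 on chromosome II, and makes the tall bar at the left edge of the locus profile. Events of 1 pair made up 44.6% and 49.2%.

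The partners of the ade6 locus lay on its own chromosome more often when crosslinks were kept. In the partner results, ade6 stands for the whole locus, flanks included. The gene itself took 43.1% of the event ends of the locus with crosslinks kept and 67.5% with crosslinks removed. Events to another chromosome were 34 of 65 in the interacting library, 52.3% (95% Clopper-Pearson interval 39.5 to 64.9), and 102 of 124 de-crosslinked events, 82.3% (74.4 to 88.5). The difference was -30.0 points (Fisher's exact test, two-sided, with p = 9.20e-05 after Benjamini-Hochberg adjustment over the 3 shares compared). For the other ends of chromosome III, each taken with its partner, the shares were 70.7% of 13672 and 78.8% of 21007. The log2 odds ratio of the libraries was -2.06 ± 0.49 (SE) at ade6 and -0.63 for those other ends. These odds ratios differed (Zelen's exact test, adjusted p = 0.0126), and they also differed when only other hot ends of the chromosome were used (adjusted p = 0.0130), a set added after the data were seen.

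Set against its own library, ade6 had fewer partners on other chromosomes than the rest of chromosome III when crosslinked, with a difference of -18.4 points (Fisher's exact test, adjusted p = 0.00704). In the de-crosslinked library the difference was 3.46 points and did not pass the test (Fisher's exact test, adjusted p = 0.559). These calls did not hold under every setting. Without flanks the difference of odds ratios was no longer past the threshold (Zelen's exact test, 14 of 28 and 68 of 85 events, adjusted p = 0.177), nor was it with events of 2 or more pairs only (18 of 36 and 50 of 63, adjusted p = 0.282). Of the 81 hot regions of chromosome III with 20 or more interacting events, whose shares to other chromosomes ran between 45.7% and 90.5% with a median of 71.2%, that of ade6 had rank 79 from the highest, at 53.4% of 73. In the de-crosslinked library it had rank 30 of 96, at 81.3%.

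**Figure D2:**
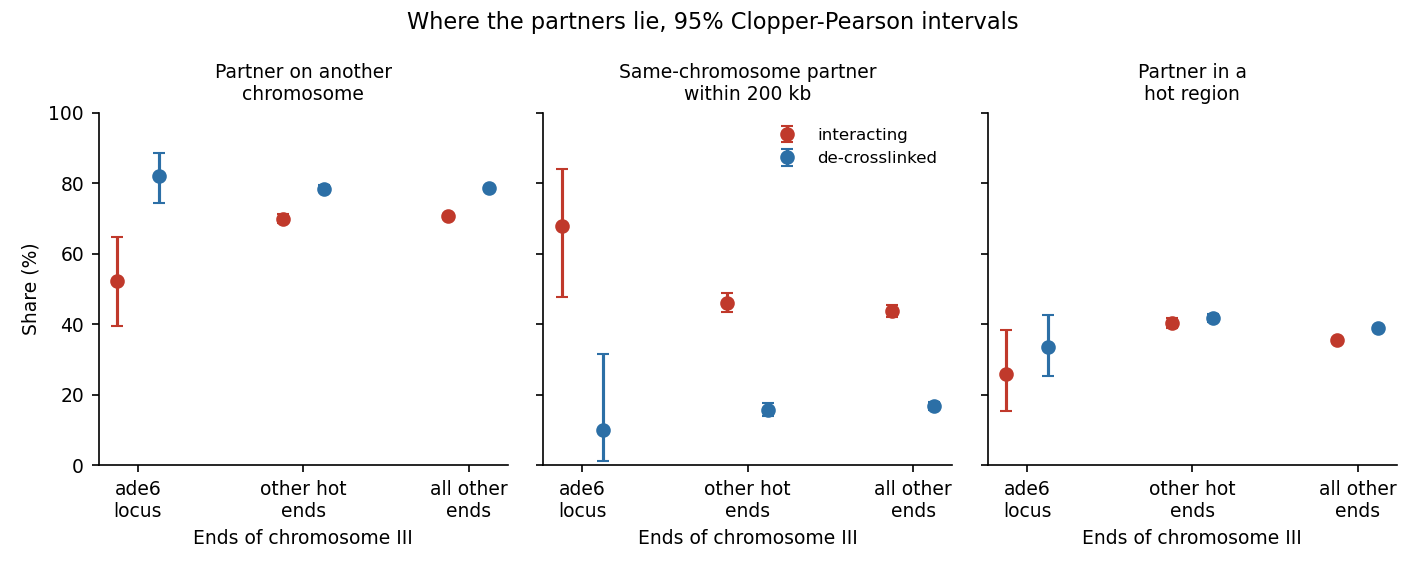
Share in percent (y axis) of partners on another chromosome, of same-chromosome partners within 200 kb, and of partners in the authors' hot class. Shares are given for events of the ade6 locus and for other hot and all other ends of chromosome III. Points are the interacting (red, left) and de-crosslinked library (blue, right) with 95% intervals; at ade6 the partners on another chromosome stood at 52.3% and 82.3%.

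With crosslinks kept, partners on the same chromosome lay mostly within 200 kb of ade6. Of events at least 5 kb apart, above the size of the sheared fragments, 19 of 28 lay within 200 kb in interacting DNA, 67.9% (47.6 to 84.1), and 2 of 20 in de-crosslinked DNA, 10% (1.23 to 31.7). The difference of 57.9 points passed the test (Fisher's exact test, adjusted p = 0.000126). The other ends of chromosome III had 43.8% and 16.7%. Within the interacting library ade6 was higher than these by 24.0 points (Fisher's exact test, adjusted p = 0.0188), but without its 3 events at ole1 and gst4 the share was 16 of 25 (adjusted p = 0.0667), and the call was also lost without flanks, at 9 of 14 (adjusted p = 0.177 by the exact test). Of the 20 hot regions of chromosome III with 20 or more such interacting events, whose shares within 200 kb ran between 29.6% and 75.8% with a median of 46.3%, that of ade6 had rank 4 from the highest, at 61.3% of 31. The odds ratio between libraries was not shown to differ from that of the rest of the chromosome (Zelen's exact test, adjusted p = 0.157; log2 difference 1.97 ± 1.13).

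Events of under 5 kb, which stayed in or next to the locus, were 3 with crosslinks kept and 2 with crosslinks removed. The smallest distance between same-chromosome ends of the deposited pairs was 1999 bp. Closer pairs, if any formed, are thus in none of the counts and shares given here. All 19 interacting events from 5 to 200 kb were in fact within 100 kb. Of them, 3 spanned 5 to 10 kb, 3 spanned 10 to 20 kb, 6 spanned 20 to 50 kb and 7 spanned 50 to 100 kb, against 0 de-crosslinked events in each of these classes. The other de-crosslinked ends of chromosome III had 0.143%, 0.171%, 0.619% and 0.733% there. A count of 0 of 124 allows a share of up to 2.93% (Clopper-Pearson), so each of these zeros is within what this depth allows. At 100 to 200 kb there were 0 with crosslinks kept and 2 with crosslinks removed. A count of 0 of 65 allows a share of up to 4.62%, taken as 3 counts of the total (the Clopper-Pearson limit is 5.52%), and the other ends of chromosome III had 2.05% there, so that the absence at 100 to 200 kb is within what this depth allows. At 50 to 100 kb ade6 had 10.8% of its interacting events (4.44 to 20.9), where other ends of the chromosome had 2.06%; this class was singled out after its value was seen and was not tested.

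**Figure D3:**
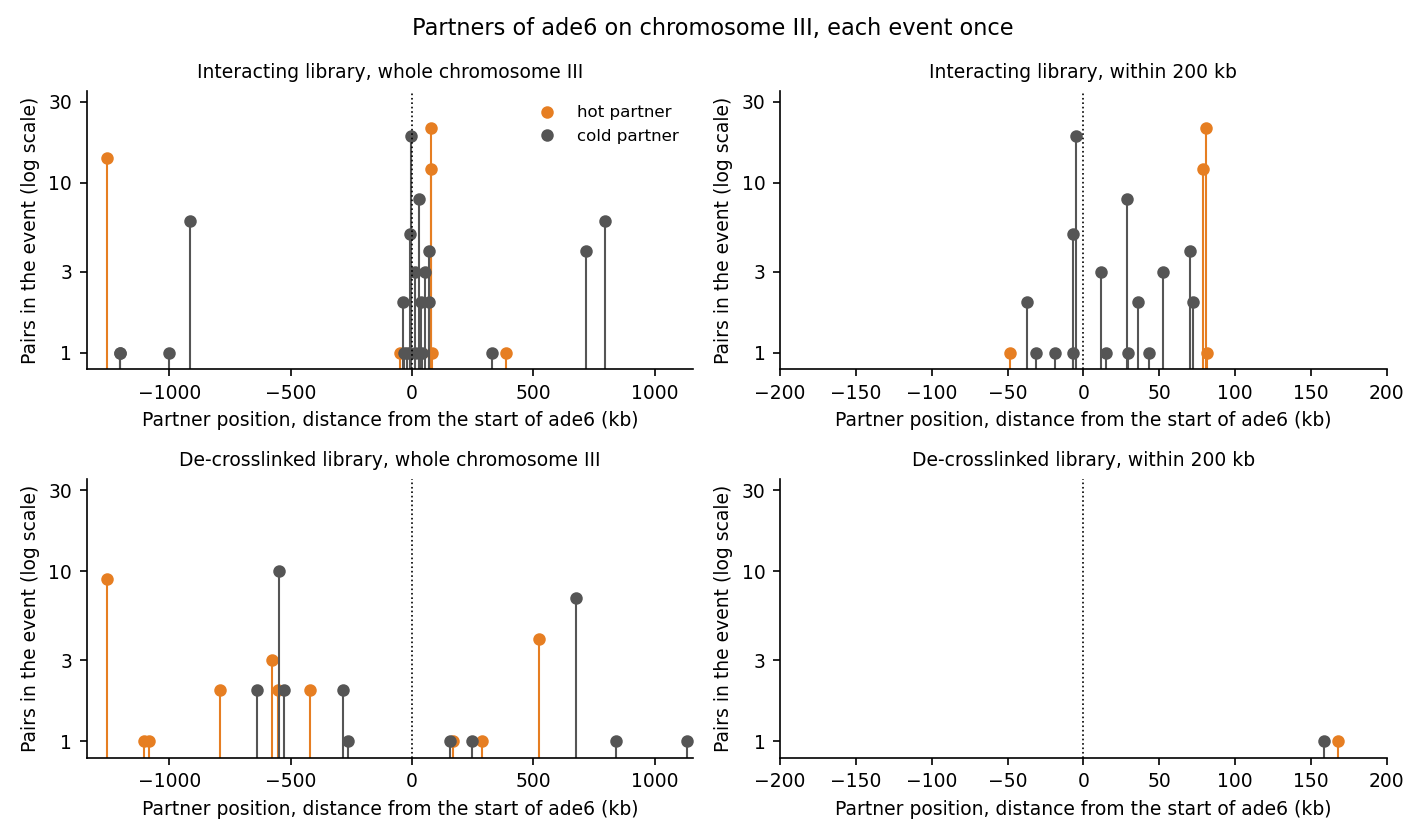
Pairs in each event of the ade6 locus (y axis, log scale) by the position of its partner on chromosome III. Positions are distances from the start of ade6 in kb (x axis), for events at least 5 kb apart. The whole chromosome is on the left and 200 kb each side on the right, interacting library above; orange partners are hot and grey ones cold. Interacting partners crowd within 100 kb, with a group of 5 events between 70.4 and 81.3 kb right of the start of ade6, while the de-crosslinked library has 2 events within 200 kb.

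The nearest group of partners lay in the gaps on both sides of knh2, which encodes a cell surface protein, at 1309308, 1309445 and 1311434, joined by 3 interacting events of 25 pairs in all. On the other side, 2 events reached rqc2, a gene of ribosome quality control, and the gap behind hst2, a sirtuin gene (1327606 and 1330883). Another 2 events ended in rad21 (1345182 and 1345404), which encodes the kleisin subunit of mitotic cohesin, the second where rad21 overlaps pof3. Single events reached kap113, rpm1, cog4, pdr16, SPCC23B6.02C and the overlap of SPCC338.03C and mug112, and 1 ended in ctp1, whose product works with the Mre11 complex at DNA ends. Several of these events left from the flanks, as those at 1309308 and 1345182 from bub1 and that at 1330883 from vtc4. In the de-crosslinked library none of these places was joined to the locus. The nearest de-crosslinked partners beyond 5 kb lay beside par1 (158.4 kb) and in srp54 (166.6 kb), with 1 pair each.

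The farthest of the near partners formed a group of 5 interacting events to the right of ade6. Of these, 2 lay in akr7, a pyridoxal reductase gene (1386718), and in the gap behind it (1388610), at 68.4 and 70.1 kb. They left from the gap after ade6 and from vtc4. The other 3 lay at 1395000, 1396855 and 1397543, at 77.4, 80.0 and 80.1 kb. The first 2 of these are in the gap between ole1, the acyl-CoA desaturase gene, and gst4, a glutathione S-transferase gene, and the last is in gst4. These 3 joined positions 1317598, 1316905 and 1317487 of ade6 and held 12, 21 and 1 pairs. The de-crosslinked library had 0 events between ade6 and this place, while the place, taken with 1 kb on each side, held 149 event ends of the interacting and 250 of the de-crosslinked library.

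The ole1 to gst4 place is one of the authors' hot regions (1392547 to 1404292). Hot regions lying 20 to 200 kb from each other form 2868 pairs, and 1.01% of these had links of 3 or more interacting events and 0.174% links of 3 or more de-crosslinked events. The pair of the ade6 and ole1 to gst4 regions was in the first group, with 3 events against 0. It was singled out after its value was seen. Its events at 1396855 and 1397543, the second of 1 pair, had both ends less than 1000 bp apart. Merged at 1000 bp they would count as 1 event, so the pair has 3 events only under the 500 bp limit. Of the 10 such pairs that include ade6, 2 were joined by any event with crosslinks kept and 1 with crosslinks removed, where 11.8% and 6.66% of all pairs were joined. Seen from the gap between ole1 and gst4 (1394877 to 1397187), 21 interacting events stayed on the chromosome at 5 kb or more, 10 of them within 200 kb, against 36 and 3 de-crosslinked events. The 2 interacting ones at 60 to 100 kb were the ade6 events of 12 and 21 pairs given above, so they are not a second view of the link. At that distance 0 led right.

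The difference in the share of hot partners did not pass the test. Of events between chromosomes or at least 5 kb apart, 16 of 62 or 25.8% (15.5 to 38.5) of interacting and 41 of 122 or 33.6% (25.3 to 42.7) of de-crosslinked events had a partner in the hot class (Fisher's exact test, adjusted p = 0.315). With every pair counted the order turned, with 42.2% and 40.4%. Within the interacting library ade6 differed from all other ends of chromosome III, of which 35.4% had a hot partner, by -9.62 points, which did not pass the test (Fisher's exact test, adjusted p = 0.142). Against the other hot ends alone, the set added after the data were seen, with 40.3%, the difference was -14.5 points (Fisher's exact test, adjusted p = 0.0334). With every pair counted, so that pairs of 1 event count separately, the difference from all other ends was 8.64 points in the opposite direction and passed the test (Fisher's exact test, adjusted p = 0.00574). Within 200 kb, 4 of the 19 interacting partners were hot, the 3 at ole1 and gst4 and 1 in SPCC23B6.02C.

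Partners on the other chromosomes were spread. Of those, 21 of 34 lay on chromosome I in interacting DNA, 61.8% (43.6 to 77.8), and 56 of 102 in de-crosslinked DNA, 54.9% (44.7 to 64.8). Of all event ends on chromosomes I and II, 56.0% and 55.4% were on chromosome I. Protein-coding genes held 40 of 62 partners in interacting DNA, 64.5% (51.3 to 76.3), and 91 of 122 in de-crosslinked DNA, 74.6% (65.9 to 82.0). The partner of the largest interacting event between chromosomes, with 16 pairs, was SPBC21B10.08C. Events of 7 pairs each reached mrs3, a mitochondrial iron transporter gene, the gap between mei2, the RNA-binding regulator of meiosis, and omt2, the gap between SPAPB24D3.06C and SPAPB24D3.07C, and osh2; the partners at mrs3 and mei2 were hot. After mas5, which encodes a DNAJ protein, the largest de-crosslinked events reached SPBC28E12.02 with 15 pairs, and pre6, a proteasome subunit gene, and SPBC4.02C with 13 pairs each.

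Of 167 partner places, linked at 5 kb over both libraries, 14 were joined to the locus by 2 or more events and 5 by events of both libraries. How many places other loci share between the libraries was not measured, so the 5 are a count and not a sign of recurrence. With 1 kb on each side, each of them held 14 to 55 event ends of the whole interacting library and 17 to 79 of the de-crosslinked one. The mrs3 place (chromosome I, 3663265 and 3662972) was joined by 1 event of 7 pairs with crosslinks kept and 1 of 9 pairs with crosslinks removed. The gas5 gap (5309062 and 5310434 on chromosome I) was joined by 1 interacting event of 6 and 1 de-crosslinked event of 4 pairs. The place of ctt1, the catalase gene, and cox14 (58740 and 59444), near the left end of chromosome III, was joined by 1 interacting event of 14 and 1 de-crosslinked event of 9 pairs. The other 2 were the stretch of SPAC4A8.14, cdc3, tif303 and tom6 and that of mrpl7 and byr2, both cold. Within the de-crosslinked library 2 events reached rqh1, a RecQ helicase gene, and 2 reached frg1 and the gap beside it. In the interacting library 2 events reached SPAP11E10.01 and 2 reached the gaps on both sides of tam14, next to the marker gene ura4 (114704 and 115304). The events at rqh1, at SPAP11E10.01 and at tam14 had both ends less than 1000 bp apart. Merged at 1000 bp, each of these places would be joined by 1 event, so they count 2 only under the 500 bp limit.

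Other genes of the purine pathway did not share the level of ade6. Every pair was counted here and for the marker and nearest genes below. Of the 10 genes ade1 to ade10, 1 with crosslinks kept and 1 with crosslinks removed stood at 4 or more times the median gene, in both cases ade6. Counted as events, ade6 stood at 3.06 times in the interacting library, below that cut, and at 4.88 times in the de-crosslinked one. At 2 or more times there were 2 and 1, where 9.0% and 7.51% of all genes stood so high; the second in the interacting library was ade3, a gene of an earlier step of the pathway, at 2.56 times, against 1.31 in the de-crosslinked library. The median of the 10 was 1.27 and 0.822 times the median gene. The lowest was ade5 in the interacting library at 0.476 times, and ade2 in the de-crosslinked one at 0.565 times.

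Of 27 other marker genes used in fission yeast crosses, 25 were found by name, and 0 stood at 4 or more times the median gene in either library. At 2 or more times, his3, a histidine synthesis gene, had 2.05 times with crosslinks kept, and lys4, the homocitrate synthase gene, had 3.15 times with crosslinks removed. Their other values there were 1.23 times for his3 in the de-crosslinked and 1.27 times for lys4 in the interacting library. The median of the list was 0.903 and 0.972 times, and ura4, which lies on the same chromosome as ade6, had 0.361 and 0.627 times.

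The 5 coding genes nearest to ade6 by their level in both libraries, measured as distance on the log2 scale of times the median over these 2 libraries, were ste11 (0.036), SPBC1105.13C (0.11), SPAC26F1.11 (0.20), vta1 (0.23) and SPBC3E7.17 (0.30). The first, ste11, which encodes the transcription factor that starts sexual differentiation, had 4.72 times the median gene with crosslinks kept and 5.67 times with crosslinks removed.

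**Figure D4:**
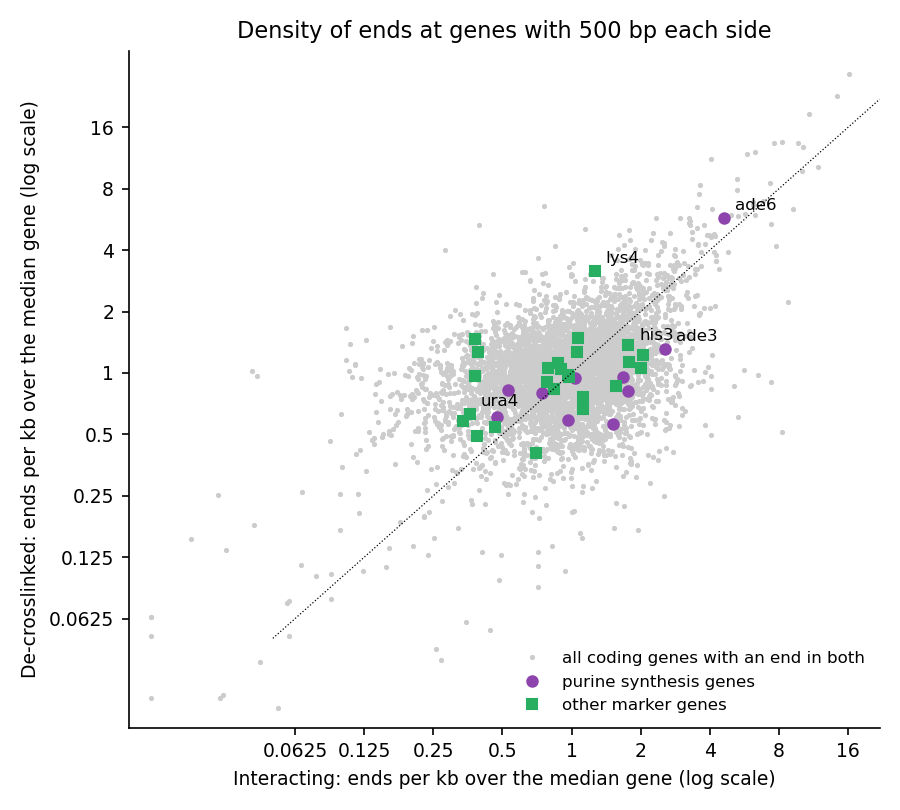
Ends per kb, every pair counted, over the median gene in the interacting (x axis) and the de-crosslinked library (y axis), both on log scales. Points are protein-coding genes with 500 bp each side and an end in both libraries. Purple circles are the 10 purine synthesis genes and green squares the 25 other marker genes; ade6 stands apart at 4.62 and 5.75, above the others of both lists.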

How the data were processed

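Each deposited file is a table of ligated pairs made by the authors; a line gives the chromosome and position of both ends and the authors' hot or cold class, whose rule is not given in the sources used here. Base calling used CASAVA 1.8.0 per the submitters' processing notes; the aligner and the build are not given in the sources used here. Positions were compared with RefSeq assembly ASM294v3.

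Pairs whose ends both lay within 500 bp were merged to 1 event (Python 3.11.15, pandas 2.3.3, SciPy 1.17.1). A partner was hot where 50% or more of an event's pairs were. Two-sided Fisher's exact tests compared shares of events, and Zelen's exact test compared odds ratios. P-values were adjusted by Benjamini-Hochberg over 3 shares. Every other end on chromosome III was counted with its partner, so an event inside the chromosome counted at both ends. Intervals are exact 95% Poisson or Clopper-Pearson ones. Event merging and Zelen's exact test were checked on simulated data, the test at a single base share and near the size of the full set of events. Fisher's test and smaller sets, such as same-chromosome events alone, were not simulated. Genes named are those in the locus, at partner places with 2 or more events in 1 library, at the 10 events with most pairs in each library, at near partners on chromosome III, list members at 2 or more times the median gene, and the 5 nearest in level; ade2, ade5, ura4 and places joined in both libraries were named after their values were seen. The locus and lists were chosen with earlier results of these data known.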

Additional observations from a re-analysis of the deposited data

How the results depend on the processing

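The fall in partners on other chromosomes between the libraries held in all 8 alternatives (-35.6 to -27.4 points, adjusted p up to 0.00993), and the gain within 200 kb in all 12 (40.0 to 73.3 points, adjusted p up to 0.0121). The hot-partner difference turned to 1.82 points with every pair counted; against the rest of chromosome III it then turned to 8.64 points with crosslinks kept, which passed (Fisher's exact test, adjusted p = 0.00574), and 2.00 with crosslinks removed, which did not. Its log2 odds ratio difference, -0.30, became 0.41 with every pair and 0.14 with events of 2 or more pairs. For other chromosomes that difference, -1.43, lost its call at -0.87 with events of 2 or more pairs and -1.33 without flanks, as did the interacting difference from the rest (-15.0 and -20.5 points). Within 200 kb it passed at 3.47 with every pair and 3.83 at a limit of 100 kb. The interacting excess within 200 kb, 24.0 points, lost its call at 17.4 with the authors' hot region, 21.3 with events of 2 or more pairs, 17.6 at 500 kb, 20.3 without flanks and 20.2 without the ole1 and gst4 events; the first and last were chosen after seeing the data. The de-crosslinked difference there passed at -16.0 points with every pair. The cause of these changes was not tested.

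The level of ade6 over the median gene was 3.06 (interacting) and 4.88 (de-crosslinked) with events counted once, 2.87 and 4.87 when merged at 1000 bp, 3.04 and 4.86 at 250 bp, 3.84 and 4.63 with 1 kb flanks, and 5.50 and 8.08 without flanks, where 84 genes stood at 4 or more times the median in the interacting library, against 50. No paired analysis was possible because each group has 1 library. Depth limits the shares at 65 and 124 events.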

Other observations

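Genes around ade6 varied between the libraries with every pair counted. The stress kinase gene srk1 stood at 2.62 times the median gene with crosslinks kept and 2.55 times with crosslinks removed. SPCC1322.09 stood at 0.484 and 2.42 times, and SPCC132.03 at 2.96 and 1.18 times. These 3 were chosen after their values were seen, and none was tested.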
